A study of Homo sapiens with 4 samples.

Results

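Chromosome 20 carried 5739 RNAPII-linked DNA loops in mock-treated HepG2 cells and 2058 in PDS-treated cells, of 66417 and 18778 loops over all chromosomes. A loop belonged to chromosome 20 when its first anchor lay on that chromosome, and the second anchor then lay there too, since 0 of the listed loops joined different chromosomes. POLR2A HiChIP-seq ligates DNA ends that are close to each other in fixed nuclei, pulls down chromatin with an antibody to POLR2A, the largest subunit of RNAPII, and counts each ligated pair of fragments as a paired-end tag (PET). The HepG2 line comes from a human liver cancer, and pyridostatin (PDS) binds and stabilises G-quadruplex (G4) DNA. The cells received either water (mock) or 20 µM PDS for 24 h, with 2 biological replicates per condition. The 4 libraries reached the deposit as 1 loop list per condition, with no value per replicate. The differences between lists below therefore have no replicate check and no p-value, and the 95% intervals cover at most counting error.

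A DNA loop in these data is a pair of anchors, each a stretch of chromatin cut by MboI, that were ligated to each other often enough to be listed. RNAPII loops commonly join promoters to enhancers, to other promoters or to other parts of the same gene. A G4 is a four-stranded structure that guanine-rich DNA can fold into, and promoters are rich in sequences able to form it. Chromosome 20 is a small autosome with gene-dense ends and a repeat-rich pericentromere. It holds genes of liver identity, among them HNF4A, FOXA2 and CEBPB, and clusters of genes that are active outside the liver, such as cystatins, beta-defensins and whey acidic proteins. HepG2 cells are aneuploid, and chromosome 20 is among the chromosomes known to be present in extra copies. Copy number was not measured here.

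Sequences at the anchors of the leading loops are shown first, because the study asked what a G4 ligand does to these contacts. A predicted G4 motif was taken as 4 runs of 3 or more G, each pair of runs 1 to 7 bases apart, searched on both strands. The following lines give the motif nearest to the middle of an anchor among those outside annotated exons, with 10 bases on either side, written along the strand with the G runs. Capitals mark the motif, and positions are those of the motif on GRCh38.
NOL4L, anchor over an exon, chr20:32545549-32545569 (-): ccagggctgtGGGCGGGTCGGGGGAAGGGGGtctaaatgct
NOL4L, intronic anchor, chr20:32568754-32568780 (-): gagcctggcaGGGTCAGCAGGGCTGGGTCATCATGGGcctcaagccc
SRC promoter anchor, chr20:37346466-37346491 (+): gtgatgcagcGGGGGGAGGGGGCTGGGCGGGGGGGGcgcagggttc
TCEA2 and SOX18 promoter anchor, chr20:64053582-64053608 (+): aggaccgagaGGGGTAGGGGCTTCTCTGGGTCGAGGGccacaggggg
SULF2 promoter anchor, chr20:47641897-47641919 (-): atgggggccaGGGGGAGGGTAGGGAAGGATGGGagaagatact
SLC13A3 promoter anchor, chr20:46626329-46626351 (-): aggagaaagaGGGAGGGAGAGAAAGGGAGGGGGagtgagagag
CRMA and MIR1-1HG anchor, chr20:62565305-62565332 (+): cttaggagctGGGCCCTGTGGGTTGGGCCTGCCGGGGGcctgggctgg
Pericentromere, first anchor, chr20:29077678-29077706 (-): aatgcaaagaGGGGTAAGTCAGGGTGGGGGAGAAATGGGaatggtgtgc
Pericentromere, second anchor, chr20:29499876-29499904 (+): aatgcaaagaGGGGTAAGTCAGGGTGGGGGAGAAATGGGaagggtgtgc
The NOL4L anchors belong to a loop that was among the strongest in both lists, while the SRC, TCEA2 and SULF2 anchors belong to loops of 15 to 17 mock PETs that the PDS list did not hold. The SLC13A3 anchor belongs to the strongest loop of the gene with most loops. The anchor at CRMA and MIR1-1HG held 55 motifs, and the SULF2 promoter anchor held 1. The SULF2 and SLC13A3 anchors held internal transcript starts and did not reach the outermost start of either gene. The motif printed for the SULF2 anchor lies outside SULF2, within the neighbouring gene NCOA3. The last pair of lines comes from anchors 421 kb apart that a loop joined in both lists, and their letters were identical at 48 of 49 positions.

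Promoter sequences are shown for CEBPB, ZNF217, DNAJC5 and HNF4A, as the 250 bases before a RefSeq start (GRCh38.p14) written along the strand of the gene, with motifs in capitals. CEBPB had the anchor with most partners of the chromosome. ZNF217 went from 18 to 2 loops, and DNAJC5 from 20 to 12. HNF4A is a regulator of hepatocyte identity.
CEBPB, chr20:50190333-50190582 (+): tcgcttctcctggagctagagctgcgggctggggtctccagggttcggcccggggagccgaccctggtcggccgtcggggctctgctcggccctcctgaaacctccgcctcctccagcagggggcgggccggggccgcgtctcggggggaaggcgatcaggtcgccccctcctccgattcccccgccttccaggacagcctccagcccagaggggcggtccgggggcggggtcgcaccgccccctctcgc
ZNF217, chr20:53593840-53594089 (-): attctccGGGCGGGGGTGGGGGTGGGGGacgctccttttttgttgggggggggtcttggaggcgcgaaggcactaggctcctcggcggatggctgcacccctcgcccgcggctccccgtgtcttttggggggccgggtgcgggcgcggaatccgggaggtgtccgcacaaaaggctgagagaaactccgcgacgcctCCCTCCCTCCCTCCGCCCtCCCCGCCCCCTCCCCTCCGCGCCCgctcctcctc
DNAJC5, chr20:63894876-63895125 (+): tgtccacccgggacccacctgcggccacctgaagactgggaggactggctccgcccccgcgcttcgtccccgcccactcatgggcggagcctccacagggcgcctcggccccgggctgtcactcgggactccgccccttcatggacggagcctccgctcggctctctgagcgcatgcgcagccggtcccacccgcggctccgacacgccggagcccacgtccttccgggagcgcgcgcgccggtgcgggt
HNF4A, downstream start, chr20:44400989-44401238 (+): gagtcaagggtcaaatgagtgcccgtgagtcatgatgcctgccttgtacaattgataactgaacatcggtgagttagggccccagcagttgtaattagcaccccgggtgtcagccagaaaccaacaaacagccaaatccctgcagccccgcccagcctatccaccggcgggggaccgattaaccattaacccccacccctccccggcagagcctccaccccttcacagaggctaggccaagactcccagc
ZNF217 had 3 motifs in this stretch, and the other lines had 0. A second RefSeq start of CEBPB, downstream of the one shown, had 1 motif in its 250 bases. Over all 35116 promoters of the RefSeq table, 23.5% held a motif in these 250 bases, against 24.6% of the 921 on chromosome 20. The CEBPB anchor as a whole spanned 18771 bp and held 26 motifs.

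Loops were denser on chromosome 20 than on any other of the 23 chromosomes in the ranking. Mock-treated cells had 89.1 loops per Mb there, against a median of 16.1 per Mb over the 23, and PDS-treated cells had 31.9 per Mb, against a median of 3.73. The mock loops held 23389 PETs and the PDS loops held 7413. The mean was 4.08 PETs a loop before and 3.60 after PDS, with maxima of 20 and 18. Both lists started at 3 PETs, so an unlisted loop can have had 2 PETs or fewer. Loops of 3 PETs made up 53.2% of the mock loops and 65.2% of the PDS loops on the chromosome, which leaves single loops with little precision. Library depth was not given with the lists.

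The number of loops fell less on chromosome 20 than elsewhere. The PDS/mock ratio of loop numbers was 0.359 (95% interval 0.341 to 0.377), against 0.276 (0.271 to 0.280) for all other sequences. These intervals were apart. The PET ratio was 0.317 (0.309 to 0.325), against 0.258 (0.255 to 0.260). The PET intervals treat each PET as independent, although a listed loop brings at least 3 PETs, so they are too narrow. The loop ratio of chromosome 20 was the second highest of the 23 chromosomes, after chromosome 14 at 0.369 (0.348 to 0.390), and those intervals overlapped. Chromosome 16 had 0.317, chromosome 2 had 0.310, and chromosome 17, the second densest in mock-treated cells at 53.4 loops per Mb, had 0.274. The difference from the other sequences was also present among loops of at least 5 PETs, where chromosome 20 had 0.190 (0.167 to 0.217) and the others had 0.144. Without loops at anchors of mostly multi-copy sequence the ratio was 0.357.

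Across chromosomes, denser ones had higher ratios. Pearson's r between mock loops per Mb and the ratio was 0.78 over the 23 chromosomes and 0.73 without chromosome 20. Each point shared its mock count between both axes and all points shared the same libraries, so these values are a description.

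**Figure D1:**
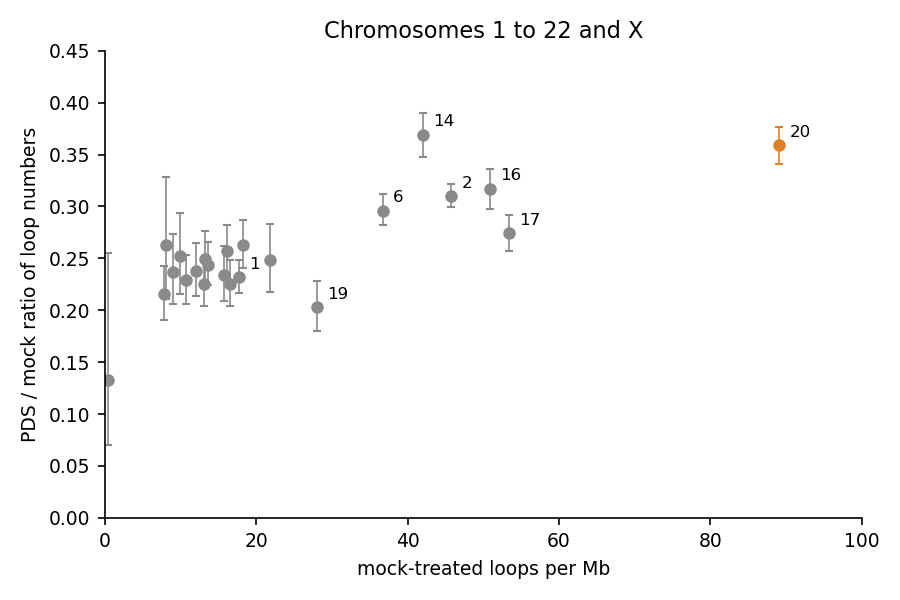
PDS/mock ratio of loop numbers (y axis) against mock-treated loops per Mb (x axis) for chromosomes 1 to 22 and X. Points are chromosomes, bars are 95% intervals from counting error, and the labels name some of the chromosomes. Chromosome 20, in orange, lies at 89.1 loops per Mb and 0.359, and chromosome 14 at 42.0 and 0.369.

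Along the chromosome the mock loops were uneven, and the PDS loops were less so. The chromosome was divided into 13 windows of 5 Mb, numbered from the end of the short arm, and a loop was placed by its midpoint. Mock loops ranged from 29.6 per Mb in window 6, which holds the pericentromere, to 128 per Mb in window 10 (45 to 50 Mb). PDS loops were fewest in window 6 as well, with 70 loops, and reached 39.4 per Mb in window 8 (35 to 40 Mb). Of the 148 mock loops of window 6, 108 lay from 25 to 26 Mb, over 9 protein-coding genes, with 40 PDS loops and a ratio of 0.370. The values of window 6 are thus not those of the pericentromere alone. Without window 6, the highest mock density was 1.99 times the lowest and the highest PDS density was 1.45 times the lowest. The densities of both lists rose together (r = 0.89 over 13 windows, 0.85 without window 6). Windows with more protein-coding genes had more mock loops (r = 0.69), and all these correlations are over windows that share libraries.

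**Figure D2:**
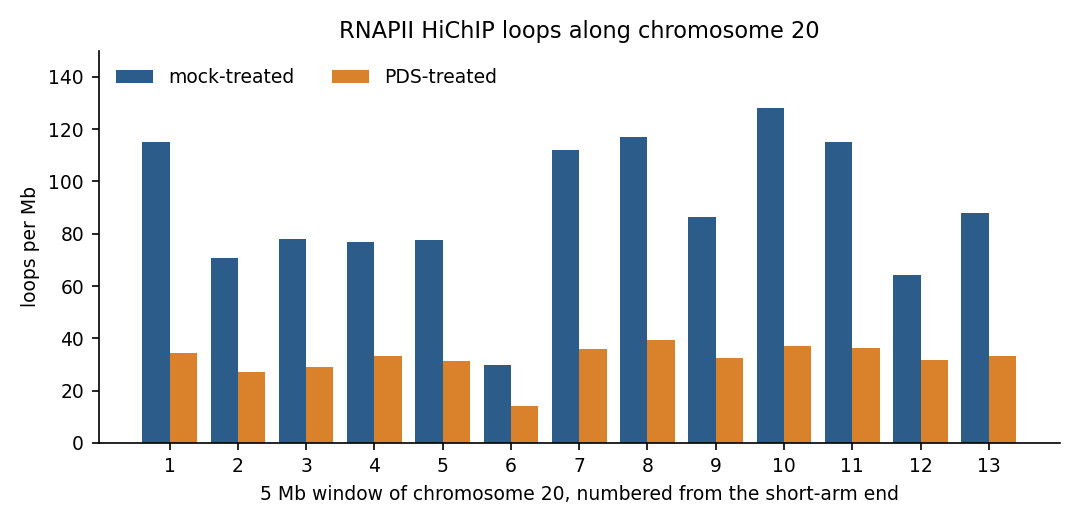
Loops per Mb (y axis) in each 5 Mb window of chromosome 20 (x axis), in blue for mock-treated and in orange for PDS-treated cells, 1 list each. Mock values lie between 29.6 and 128 and PDS values reach 39.4, with the lowest of both in window 6.

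At a finer scale, of 65 bins of 1 Mb, the one from 50 to 51 Mb held most mock loops, 209, and 62 PDS loops, and its leading gene was CEBPB, a transcription factor of the hepatic acute-phase response. The bin from 3 to 4 Mb had 180 mock and 50 PDS loops, led by DNAAF9. The bin from 49 to 50 Mb had 172 and 54, with CSE1L, a nuclear export receptor, and SNAI1, a repressor of epithelial genes, among its genes. The median bin had 82 mock and 33 PDS loops, and 1 bin had 0 of both.

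The interval of the PDS/mock ratio overlapped that of the rest of the chromosome in all windows except the lowest and the highest. It was lowest in window 10, at 0.291 (0.247 to 0.343), where 639 mock loops stood against 186 PDS loops, and the rest of the chromosome had 0.367 (0.348 to 0.387). It was highest in window 12 (55 to 60 Mb), at 0.492 (0.407 to 0.595) from 321 and 158 loops, against 0.351 (0.333 to 0.369) for the rest. In these windows alone the interval was apart from that of the rest of the chromosome. Windows 6 and 4 followed from the top at 0.473 and 0.434, and windows 1 and 11 followed from the bottom at 0.299 and 0.317, each with an interval that overlapped that of the rest. The remaining windows lay between 0.323 and 0.402. Neighbours in this order did not differ beyond their intervals. On the other chromosomes, 357 windows with at least 50 mock loops ranged from 0.111 to 0.559 with a median of 0.256, so each window of chromosome 20 lay above that median and inside that range.

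**Figure D3:**
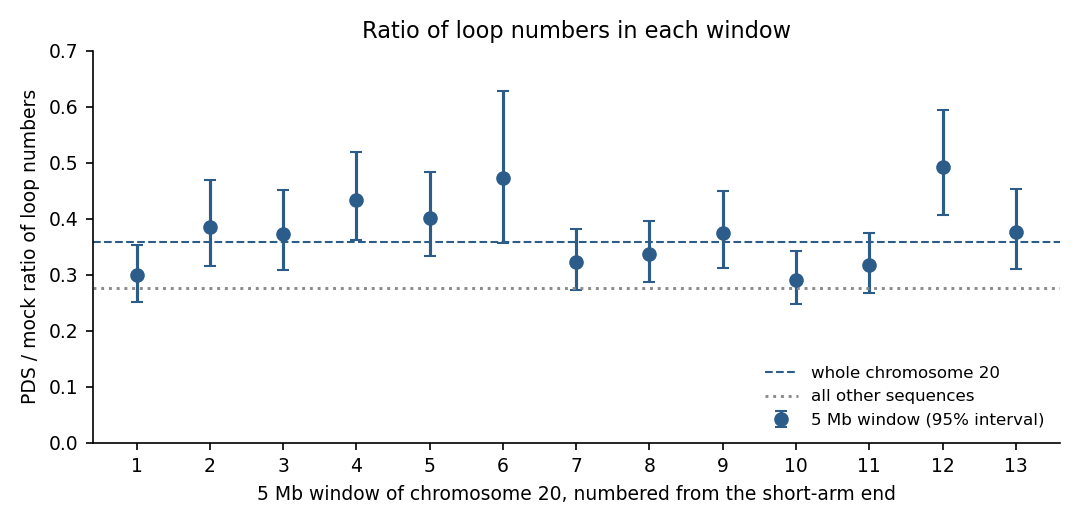
PDS/mock ratio of loop numbers (y axis) in each 5 Mb window of chromosome 20 (x axis), with 95% intervals from counting error. The dashed line is the ratio of the whole chromosome, 0.359, and the dotted line that of all other sequences, 0.276. Window 10 has the lowest value, 0.291, and window 12 the highest, 0.492.

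Which windows stood at the ends depended on their borders. With windows shifted by 2.5 Mb the highest ratio was 0.426 (0.361 to 0.503), at 17.5 to 22.5 Mb, and the lowest was 0.293 (0.222 to 0.386), in the first 2.5 Mb of the short arm. Counting PETs, windows 10 and 12 remained the lowest and the highest, at 0.257 (0.236 to 0.280) and 0.454 (0.412 to 0.501). These PET intervals are too narrow as well, since PETs of the same loop are not independent. The short arm (windows 1 to 5) had 0.371 (0.342 to 0.403) and the long arm (windows 7 to 13) had 0.346 (0.324 to 0.370), and these intervals overlapped.

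Windows dense in mock loops had lower ratios. Pearson's r between the ratio and mock loops per Mb was -0.91 (Spearman's rho -0.92) over the 13 windows and -0.90 without window 6. The mock count is the denominator of the ratio and part of the density, which by itself can lower r. On the 20 other chromosomes with at least 6 windows of at least 50 mock loops, r between the ratio and the mock loops ranged from -0.62 to 0.75 with a median of 0.08, and it was below 0 on 9 of them. On chromosome 20 that r was -0.90. The relation inside chromosome 20 thus ran opposite to the one across chromosomes. The ratio had r = -0.59 with protein-coding genes per Mb and -0.15 with the share of mock loops that had a G4 motif. The median share of multi-copy sequence in the anchors of mock loops had r = 0.01 with their density and -0.13 with the ratio over the 13 windows. Without window 6 these were 0.87 and -0.73. Its part in either was not tested.

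Windows 10 and 12 differed in their genes. Window 10 held 70 protein-coding genes, of which 62 had a mock loop at a promoter and 38 a PDS loop. Its lowest bin ran from 45 to 46 Mb, where 109 mock loops and 21 PDS loops gave 0.193 (0.121 to 0.306) over 41 protein-coding genes. Its leading genes were TNNC2, PIGT, SDC4 and PI3, of which SDC4 is a heparan sulfate proteoglycan and PI3 an elastase inhibitor with a whey acidic protein domain. Window 12 held 41 protein-coding genes, of which 40 had a mock loop and 31 a PDS loop. There, loops without a promoter had a ratio of 0.603 (0.474 to 0.768) and loops with one had 0.361 (0.264 to 0.493). The values for window 10 were 0.285 (0.230 to 0.353) and 0.300 (0.234 to 0.386). The bin from 55 to 56 Mb, without protein-coding genes, had 18 mock and 12 PDS loops. The bin from 56 to 57 Mb, led by FAM210B, RTF2 and AURKA, a mitotic kinase, had 55 and 38, with a ratio of 0.691 (0.458 to 1.04).

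Window 13, at the end of the long arm, had the longest mock loops by median and the highest share of mock loops with a G4 motif. Its mock loops spanned a median of 33560 bp, 97.7% of them had a G4 motif and 67.5% had a promoter, and its sequence had 52.0% GC. Its PDS loops spanned 26574 bp, less than those of window 6, at 35728 bp. Its ratio was 0.376 (0.311 to 0.454). Window 2 was the opposite extreme in motifs, with a motif at 63.2% of mock loops, and its ratio of 0.385 (0.316 to 0.469) overlapped that of window 13.

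A G4 motif at the anchors did not separate the loops that were fewer after PDS. At least 1 anchor had a motif in 82.1% of mock loops (81.1 to 83.1%) and in 82.0% of PDS loops (80.3 to 83.6%). The ratio was 0.354 (0.327 to 0.384) with a motif at both anchors, 0.362 (0.335 to 0.391) at 1 anchor and 0.361 (0.320 to 0.406) at no anchor. Such motifs are predictions from sequence, and folded G4s were not analysed here. The share of loops with a motif was higher than on the other sequences, at 74.6% (74.2 to 74.9%) of mock loops. Wider anchors held motifs more often, from 31.5% of the mock anchors up to 4069 bp wide to 75.6% of those of at least 9237 bp. The mean width of both anchors of a mock loop had a median of 8408 bp on chromosome 20 and 7620 bp elsewhere. That median counts an anchor again for each of its loops. Over distinct anchors of both lists, the median width was 5904 bp on chromosome 20 and 5817 bp on the other chromosomes. Of these anchors, 51.8% and 47.1% held a motif.

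Promoter loops were fewer after PDS by more than other loops. A promoter anchor overlapped 1 kb on either side of any transcript start of a protein-coding gene in GENCODE 44. Loops with a promoter had a ratio of 0.318 (0.293 to 0.345), and loops without one had 0.387 (0.363 to 0.413). The same order held on the other sequences, at 0.249 (0.243 to 0.256) and 0.299 (0.292 to 0.305). Promoter loops made up 41.3% of mock loops and 36.6% of PDS loops, with 95% intervals apart, against 46.4% and 41.9% elsewhere. With only the outermost start of each gene, the shares were 24.3% and 19.8% on chromosome 20 and 24.7% and 20.0% elsewhere, so the gap to the other sequences rested on the internal starts.

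The median span of a loop was 21037 bp (20111 to 21892 bp) in the mock list. It was 19568 bp (18433 to 20454 bp) in the PDS list, within overlapping intervals. The medians elsewhere were 17120 and 16947 bp. Among loops of at least 5 PETs the order of both lists turned, at 15100 and 16100 bp to 3 digits. Loops of 10 to 20 kb had the highest ratio, 0.420 (0.383 to 0.461), and loops of 100 to 200 kb had 0.310 (0.258 to 0.372). In each of the 6 distance classes the ratio was higher on chromosome 20 than on the other sequences, and the intervals were apart except from 50 to 100 kb, where their bounds met at 0.270.

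Of the mock loops, 960 were also in the PDS list, with both anchors overlapping. They made up 16.7% (15.8 to 17.7%) of the mock loops and 46.6% (44.5 to 48.8%) of the PDS loops, and the shares over all chromosomes were 11.0% and 39.1%. The share of mock loops was 39.7% with anchors extended by 5 kb and 9.19% among loops of at least 5 PETs in both lists, against 23.6% and 6.66% on the other sequences. In 545 of the shared loops the PET count was lower after PDS, in 261 it was equal and in 154 it was higher, with a median log2 PDS/mock value of -0.36. Both lists started at 3 PETs, so the 298 shared loops with 3 mock PETs could not be lower. Loops that fell below 3 PETs are not among the shared ones, and the cut thus shaped this split. Lower counts made up 56.8% on chromosome 20 and 55.3% over all chromosomes.

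Strong loops were listed again more often than weak ones. Both lists started at 3 PETs, so a loop with few mock PETs left the list after a small loss. The rise with PETs cannot be told apart from this limit. Of mock loops with 3 PETs, 9.76% were in the PDS list, against 5.65% on the other sequences. The shares were 16.3% against 11.2% at 4 PETs and 43.0% against 38.0% at 7 to 9 PETs. Of the 110 mock loops with at least 10 PETs, 77 were in the PDS list (95% interval of the share 60.9 to 77.8%), against 62.6% over all chromosomes. The intervals of chromosome 20 and the other sequences were apart at 3 and 4 PETs and overlapped in the stronger classes.

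**Figure D4:**
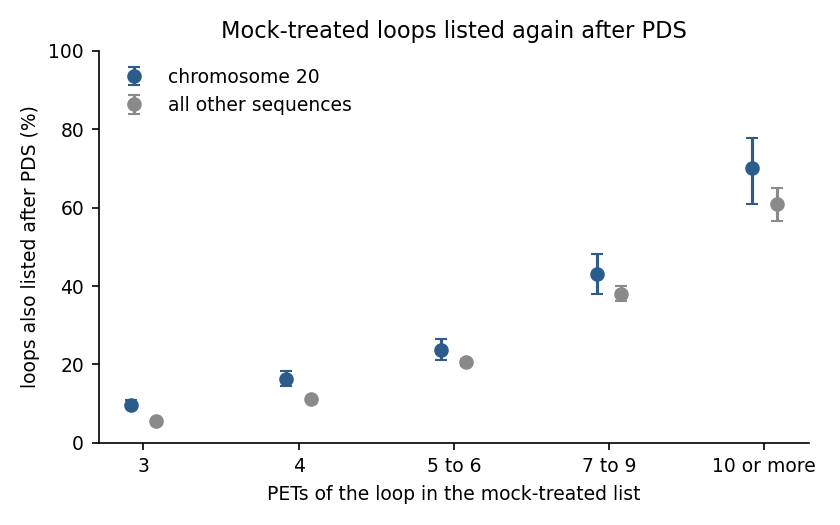
Share of mock-treated loops that were also listed after PDS, in percent (y axis), by the PETs of the loop in the mock-treated list (x axis), for chromosome 20 in blue and all other sequences in grey. Bars are 95% Wilson intervals, and the shares on chromosome 20 rise from 9.76% at 3 PETs to 77 of 110 loops at 10 or more. Both lists start at 3 PETs, so weaker loops drop out after a smaller loss.

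The PDS list lacked 33 of the strong mock loops, and those with most PETs included several at promoters. The loop with 17 mock PETs joined a part of NCOA3, a coactivator of nuclear receptors (chr20:47631654-47637648), to an anchor over NCOA3 and SULF2 (chr20:47638591-47665968). SULF2 is an extracellular sulfatase of heparan sulfate. That anchor held an internal start of SULF2 and not its outermost start at chr20:47786616. SRC, a tyrosine kinase, had a promoter loop of 15 mock PETs (chr20:37335619-37341444 to chr20:37342107-37350914). TCEA2, an RNAPII elongation factor, had another of 15, whose first anchor also held the promoter of SOX18, an endothelial transcription factor. PCK1, the gluconeogenic phosphoenolpyruvate carboxykinase, had a loop of 14 mock PETs to sequence upstream, without a motif at either anchor. SRXN1, which reduces oxidised peroxiredoxins, had one of 13. Each of these had at most 2 PETs after PDS. Of the 33 loops, 60.6% had a promoter (43.7 to 75.3%), against 44.2% (33.6 to 55.3%) of the 77 that were listed again. A motif at both anchors was found in 57.6% and 53.2%, and both pairs of intervals overlapped.

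Other strong loops were listed in both conditions. The strongest mock loop, with 20 PETs, joined intergenic anchors at chr20:20996607-21033739 and chr20:21034733-21057243, and it had 5 PETs after PDS. A loop inside NOL4L (chr20:32538017-32549301 to chr20:32558004-32577380) had 17 mock PETs and 12 after PDS. Another joined TPD52L2 and DNAJC5 promoters to another DNAJC5 promoter and went from 18 to 7. The long non-coding genes CRMA and MIR1-1HG lay in an anchor (chr20:62540497-62589805) whose loop had 15 PETs before and 13 after. A loop from intergenic sequence to the body of TOP1, the topoisomerase that relaxes DNA ahead of RNAPII, had 16 and 9. RBM39, a splicing factor, had a loop between its own promoters with 15 and 8.

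The strongest loops of the PDS list were pericentromeric. A loop from chr20:29054341-29101917 to chr20:29512128-29521073, 438 kb apart, had 16 mock PETs and 18 PDS PETs, and its neighbour over 421 kb had 13 and 14. Of the 31-base sequences in these anchors, 58.8 to 60.5% occur more than once in the genome, against a median of 9.04% over the anchors of chromosome 20. These sequences are shorter than the reads of 100 bp, so the share does not give how many reads could be placed in 1 copy only. The part of multi-copy sequence in the counts was not tested. In all, 94 mock and 43 PDS loops had an anchor with over 50% of such sequences, 51 of the mock loops lay in window 6, and their ratio was 0.457 (0.319 to 0.655).

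Some loops outside the pericentromere had more PETs after PDS. In an intron of MACROD2, a gene for an ADP-ribose hydrolase, a loop went from 5 to 10 PETs, and an intergenic loop at chr20:43820284-43829196 went from 4 to 10. Loops inside ATRN and SPTLC3, the latter a subunit of serine palmitoyltransferase, each went from 3 to 8. There were 20 shared loops with at least 3 more PETs after PDS, and these were chosen for that difference. The 1098 PDS loops absent from the mock list had up to 8 PETs, and 67 of them had at least 5.

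Nearly every protein-coding gene of the chromosome took part in a loop. Of 546 such genes in GENCODE 44, 499 had a mock loop at a promoter, 91.4%, against 59.8% over all chromosomes, and 364 had a PDS loop, 66.7%, against 28.7%. A gene with any mock loop had a median of 5.00. At least 10 mock loops were found for 92 genes, 16.8%, against 2.95% over all chromosomes, and at least 10 PDS loops for 9. After PDS 471 genes had fewer loops, 20 had as many and 19 had more. A loop was counted for each gene with a promoter in its anchors, and genes with long bodies or many annotated starts had more promoter anchors, so these numbers are not levels of RNAPII.

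SLC13A3, a sodium-coupled transporter of dicarboxylates, had most loops, 36 with 186 PETs in mock-treated cells and 14 with 54 PETs after PDS. It had 6 promoter anchors, and in 29 of the 36 mock loops the partner lay over the gene itself. Its strongest loop (chr20:46604274-46609269 to chr20:46612699-46633100) had 13 mock and 10 PDS PETs. PLCB1, a phospholipase C, followed with 30 loops and 119 PETs, and had 8 and 24 after PDS. Its strongest loop fell from 9 to 3 PETs. EPB41L1, a membrane-cytoskeleton linker, had 27 loops with 123 PETs and 14 with 49 after PDS.

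CEBPB differed from these in form. It is a gene of 1.84 kb with 1 annotated start, and each of its 26 mock loops (112 PETs) left from a single anchor at chr20:50185026-50203796. The partners lay outside the gene at a median of 143 kb and up to 412 kb away, and 1 of the 26 loops reached a promoter of another gene. After PDS, 7 loops with 23 PETs were listed, and those 7 were all shared with the mock list. Its strongest mock loop, 8 PETs to LINC01270, a long non-coding gene, was not in the PDS list, and a loop to PELATON, another, went from 7 to 4. With only outermost gene starts counted, CEBPB led the chromosome.

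RBM39 and PHF20 had the lowest ratios of the 15 genes with most mock loops. RBM39 went from 21 loops and 104 PETs to 2 loops and 11 PETs, a ratio of 0.0952 (0.0248 to 0.366). PHF20, a subunit of a histone acetyltransferase complex, went from 23 and 100 to 4 and 12. ZNF217, a zinc finger transcription factor, went from 18 and 69 to 2 and 7. The upper bound for RBM39 was above the ratio of the chromosome. MYT1, a zinc finger factor of neural cells, went from 23 and 108 to 7 and 32, and RALGAPA2, a regulator of Ral GTPases, from 23 and 105 to 6 and 20.

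Several other genes ranked high in the PDS list, where 9 genes had at least 10 loops and a tie at 8 loops followed, broken by PETs. DNAJC5, a co-chaperone of synaptic vesicles that other tissues express as well, had 20 loops with 114 PETs and 12 with 52 after PDS. PTK6 and SRMS, a pair of tyrosine kinases, with HELZ2 and FNDC11, lay in 1 anchor of 51.4 kb with 63 motifs (chr20:63533304-63584668). That anchor had 21 loops with 109 PETs in mock-treated cells and 10 with 36 after PDS, and the 4 genes cannot be told apart in it. SLC17A9, a vesicular nucleotide transporter, went from 13 to 10 loops, and DOK5, an adaptor of receptor tyrosine kinases, from 12 to 10. ITCH, a ubiquitin ligase, went from 15 to 8.

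**Figure D5:**
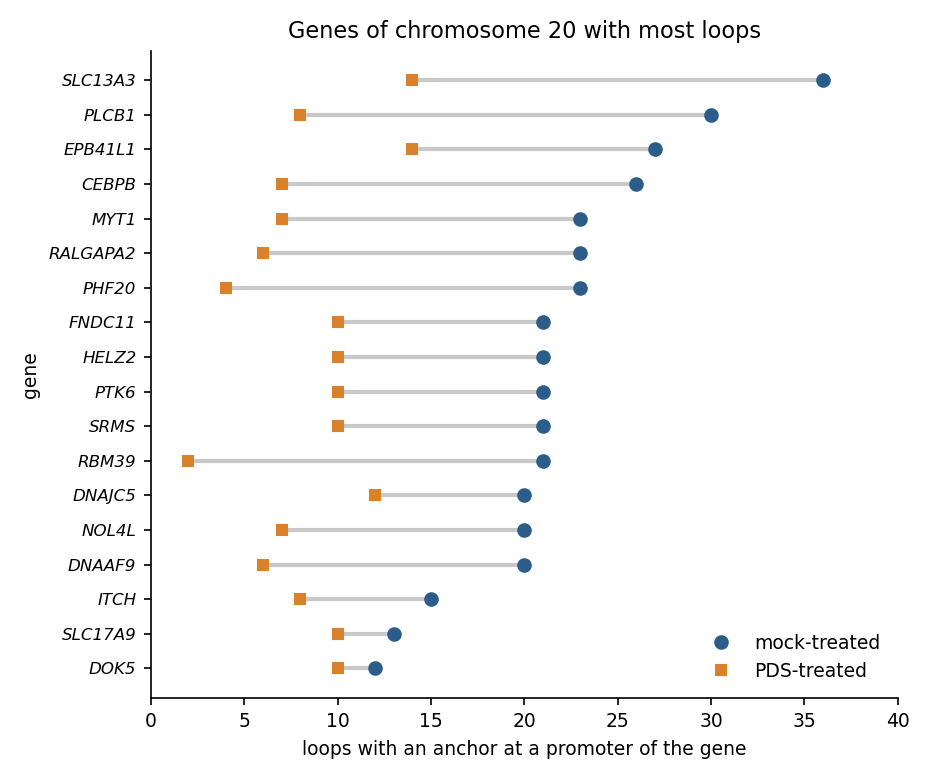
Loops with an anchor at a promoter of the gene (x axis) for the 15 genes of chromosome 20 with most mock-treated loops and the 10 with most PDS-treated loops (y axis), 18 genes in all, with ties broken by PETs. Blue circles are mock-treated and orange squares PDS-treated cells. Each gene shown has fewer loops after PDS, from SLC13A3 (36 and 14) to DOK5 (12 and 10), and FNDC11, HELZ2, PTK6 and SRMS share their loops.

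At least 5 mock loops were found for 270 genes, and 26 of them had no PDS loop, 9.63% (6.66 to 13.7%), against 21.1% over all chromosomes. LZTS3 had 11 mock loops with 48 PETs, and NCOA3 had 10 with 35. POFUT1, which adds fucose to Notch receptors, and ZNF343, a zinc finger gene, had 9 each, and YWHAB, a 14-3-3 adaptor, and TNNC2, a troponin of fast muscle, had 8 each. RBCK1, a subunit of the linear ubiquitin ligase, HSPA12B, a relative of the heat shock 70 proteins, R3HDML and GNAS, the stimulatory G protein subunit, had 7 each. The 19 genes with more PDS than mock loops, 3.48% against 3.37% over all chromosomes, had small counts. PHACTR3, a regulator of protein phosphatase and actin, had 7 and 8, PMEPA1, an inhibitor of TGF-beta signalling, had 4 and 6, and the remaining 17 had at most 2 mock loops. PHACTR3 and PMEPA1 lie in window 12.

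Genes of hepatocyte transcription and liver metabolism had mock loops in 16 of 16 and PDS loops in 13, where the shares over the protein-coding genes of the chromosome were 91.4% and 66.7%. These shares are the background for each group that follows. Together they had 126 and 41 loops, a ratio of 0.325 (0.229 to 0.462), against 0.315 (0.293 to 0.338) over all protein-coding genes of the chromosome. HNF4A had 13 loops with 52 PETs and 6 with 19 after PDS, of which 2 were shared. FOXA2, a pioneer factor of endoderm, had 7 with 35 and 3 with 9, and PCK1 had 9 with 51 and 3 with 12. AHCY, which hydrolyses S-adenosylhomocysteine, had 12 and 2 loops. The interval of the group held the ratio of all genes. A loop at an anchor with several promoters entered such sums once for each gene.

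Genes of transcription and RNA processing had the lowest ratio of the 7 groups, 0.224 (0.163 to 0.309), from 205 and 46 loops over 22 genes. The interval overlapped that of all genes, 0.293 to 0.338, and its upper bound lay just below their ratio of 0.315. Loops at promoters of several genes, such as the loop from RBM39 to PHF20, entered the sums for each gene. Both intervals are therefore too narrow, and the group is not set apart from all genes. All 22 had a mock loop and 18 a PDS loop, 21 had fewer loops after PDS, against 86.3% of the genes of the chromosome, and ADNP had 2 in both lists. TAF4, a subunit of TFIID, went from 16 to 3 loops, and TCEA2 from 18 to 4. RALY, an RNA-binding protein, went from 15 to 8.

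The other groups had ratios between 0.287 and 0.326. Replication and cell division genes had mock loops in 15 of 15 and PDS loops in 10, close to the shares of 91.4% and 66.7%, with 92 and 30 loops. GINS1, a subunit of the replicative helicase, went from 17 to 5, and PCNA, the sliding clamp, had 3 and 0. Translation and mitochondrial genes had 87 and 26 loops, with 13 of 14 looped in mock-treated cells. CRLS1, the cardiolipin synthase, went from 17 to 3. Signalling genes had 150 and 43 loops, with 17 of 18 looped in mock-treated cells, and JAG1, a Notch ligand, went from 16 to 6 and CSNK2A1, a casein kinase subunit, from 13 to 2. BMP2, a bone morphogenetic protein, had 0 mock loops and 1 PDS loop.

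Groups that are active outside the liver are given beside the same shares, 91.4% for mock and 66.7% for PDS loops, without a test. Of 17 neuronal and endocrine genes, 14 had a mock loop (82.4%) and 11 a PDS loop (64.7%), with 96 and 30 loops in all, a ratio of 0.312. INSM1, a factor of neuroendocrine cells, had 2 mock and 3 PDS loops, and NKX2-2, a factor of neurons and islets, had 0 and 1. Of 40 genes in clusters of tissue-restricted genes, 29 had a mock loop (72.5%) and 19 a PDS loop (47.5%), with 93 and 30 loops, a ratio of 0.323. CST2, a salivary cystatin, had 6 and 4. Over all chromosomes, 11 of 12 hepatocyte marker genes and 6 of 8 markers of other cell types had a mock loop, and 11 and 3 had a PDS loop. The shares over all protein-coding genes were 59.8% and 28.7%. Of the defining markers, APOA1 had 0 mock loops and 1 PDS loop, and the blood markers PTPRC and HBB had 0 loops in both lists. The blood marker CD3E had 2 mock and 0 PDS loops. Among the other markers from outside the liver, MYH6 had 12 and 4, PECAM1 had 8 and 3, and COL1A1 had 4 and 1. GFAP had 3 and 0 and KRT5 had 1 and 0, where ALB, a hepatocyte marker, had 13 and 3. Together the hepatocyte markers had 59 mock and 20 PDS loops, and the others had 30 and 8. Mock loops were thus present at most markers of both kinds, while PDS loops were present at a larger share of the hepatocyte markers. With so few genes this difference was not tested.

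Anchors with many partners were fewer in the PDS list, and their number depended on the weakest loops. Mock loops used 4502 anchors of chromosome 20, of which 75 had at least 10 partners and 1838 had 1. PDS loops used 2623 anchors, of which 3 had at least 10 and 1712 had 1. Among loops of at least 4 PETs, 8 mock anchors and 0 PDS anchors had at least 10 partners. The mean number over all loops was 2.55 and 1.57. After the anchor at CEBPB and the anchor of PTK6 and HELZ2, an intronic anchor of ISM1, a secreted protein gene, had 20 mock and 10 PDS partners and no motif (chr20:13233372-13266809). An anchor inside PHF20 had 18 and 5, and one at CHD6, a chromatin remodeller, had 17 and 6. Wide anchors had more partners, 1.60 on average up to 4069 bp and 3.97 from 9237 bp.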

How the data were processed

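The POLR2A HiChIP-seq data were analysed from 1 loop list for mock-treated and 1 for PDS-treated HepG2 cells. Per the study's methods and the submitters' processing notes, paired-end reads of 100 bp were aligned to GRCh38, deduplicated and assigned to MboI fragments with HiC-Pro 3.1.0. The deposited lists hold, for each loop, a pair of anchors and whole-number counts of PETs, unscaled. The caller of the loops and the way the 2 replicates per condition were combined are not given in the sources used here.

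Loops with the first anchor on chromosome 20 were taken from both lists, and the same steps were run on all chromosomes. Loops were matched with bedtools 2.31.1 (pairtopair, at least 1 bp at both anchors), and all 7333 matched pairs had identical anchors. Each ratio of loop numbers has a 95% interval that comes from the Wilson limits of PDS loops among the loops of both lists. PET ratios use PETs in place of loops, shares have Wilson intervals, and medians have binomial rank intervals (scipy 1.17.1). With 1 list per condition no test was possible. Gene positions are from GENCODE 44. The genes named are the 15 with most mock loops, the 10 with most PDS loops, those at the 10 strongest loops of each list, up to 10 with at least 5 mock loops and no PDS loop, and group examples. Those at the strong loops lost or gained, the leading genes of 1 Mb bins, ADNP, PCNA and the anchors with most partners were named after their values were seen. The chromosome, the gene lists and the tests were chosen with earlier results of these data known. Matching, windows and motif search were tested on simulated data. The software was matplotlib 3.10.9, samtools 1.23.1, pysam 0.24.0, pandas 2.3.3 and Python 3.11.15. Columns of coordinates are in bp, and starts are printed from 1.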

Additional observations from a re-analysis of the deposited data

How the results depend on the processing

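No paired analysis was possible because the lists carry no values per replicate, and leaving out a replicate was not run for the same reason. Of 47 alternative values, 28 stayed within the main interval, or within 1.5 times the main count. The loop ratio of 0.359 became 0.267 with at least 4 PETs and 0.190 with at least 5, where the other sequences had 0.197 and 0.144, and the PET ratio became 0.175 with at least 5. The lowest window ratio became 0.212 with at least 4 PETs, and windows shifted by 2.5 Mb moved both the lowest and the highest ratio to other places. The shared share of mock loops rose to 39.7% with anchors extended by 5 kb and was 9.19% with at least 5 PETs in both lists, against 23.6% and 6.66% elsewhere. Median distances with at least 5 PETs were 15100 bp (mock) and 16100 bp (PDS), which turned their order. Promoter loops were 44.7% and 39.7% of both lists at 2.5 kb, and 24.3% and 19.8% with outermost starts. Motif loops were 93.1% and 92.7% with spacers of 1 to 12 bases, and 40.6% and 40.1% with a motif at both anchors. Of the 15 leading genes, 10 stayed at 2.5 kb, 6 with outermost starts and 14 by PETs. Anchors with at least 10 partners fell to 8 (mock) and 0 (PDS) with at least 4 PETs. Leaving out multi-copy anchors and widening promoters for the gene groups were chosen after the data were seen, and those values stayed within their intervals. Counts of 3 PETs limit what single loops can show.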
